A study of Mus musculus with 6 samples.

Results

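The miR-148 and miR-152 family is a set of microRNAs cut from 3 hairpins, miR-148a, miR-148b and miR-152. Its members were taken by name, as every array entry with the number of miR-148 or miR-152, any letter and either arm. This gave 6 of the 1247 mouse miRNAs on the array, namely the 3p and the 5p strand of each hairpin. The 3p strands, listed on the array as mmu-miR-148a-3p, mmu-miR-148b-3p and mmu-miR-152-3p, were detected on all 6 arrays and were tested, and the 3 5p strands were detected on none. With interleukin-6 (IL-6), an inflammatory cytokine, none of the 3p strands passed the test, and for each of them the IL-6 arrays lay among the controls or overlapped with them.

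The cells were mouse 3T3-L1 cells, an embryonic fibroblast line that becomes fat-laden under hormones. All 6 samples were taken on day 8 after the same induction with isobutyl-methylxanthine, dexamethasone, insulin and rosiglitazone. The 4 control samples received no cytokine. The 2 IL-6 samples received recombinant IL-6 at 1 ng/ml from the start of induction, with fresh medium daily. The labels do not state that the samples within a group were grown independently. The p-values therefore cover the scatter of these 6 samples alone, and part or all of it may be technical. RNA from each sample was labelled with a single dye on 1 Agilent mouse miRNA array, and the number of arrays limits the precision.

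A miRNA works as a guide that brings a silencing complex to messenger RNAs, mostly through pairing of its seed, the bases 2 to 8 from the 5′ end. One strand of each hairpin usually becomes the guide, and the other, the passenger strand, is mostly degraded. In this family the 3p strand is the usual guide. Known targets include Dnmt1, the maintenance DNA methyltransferase, and for miR-148a also Wnt1, a signal that holds back fat cell formation. miR-148a is known to promote adipogenesis, and in bile duct cancer cells IL-6 has been linked to lower miR-148a and miR-152.

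The mature strands are printed to show how alike the members are, since this sets what an array probe can tell apart. They come from RefSeq on GRCm38.p6, where all 6 members had an entry, and run 5′ to 3′ with the seed in capitals:
miR-148a-3p: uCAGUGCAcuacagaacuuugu
miR-148b-3p: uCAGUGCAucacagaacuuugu
miR-152-3p: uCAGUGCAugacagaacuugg
miR-148a-5p: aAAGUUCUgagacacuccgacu
miR-148b-5p: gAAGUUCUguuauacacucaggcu
miR-152-5p: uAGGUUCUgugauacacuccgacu

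The 3 guide strands share all bases of the seed. Counted from 1 at the 5′ end, miR-148b-3p differed from miR-148a-3p by C9U and U10C alone, so that 20 of 22 bases were identical. miR-152-3p differed from miR-148a-3p by C9U, U10G and U20G over the 21 bases that both have, and from miR-148b-3p by C10G and U20G. The passenger strands were less alike, with 13 of 22 bases identical between miR-148a-5p and miR-148b-5p. The seed of the 5p strands was common to the miR-148 members and differed at 1 base in miR-152-5p.

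Among 1679 mature mouse miRNA names in the RefSeq table, 0 others carried the same bases 2 to 8 as the guides. The same 7 letters stood 1 base earlier, at bases 1 to 7, in 7 other miRNAs, all on the array: miR-130a-3p, miR-130b-3p, miR-130c, miR-301a-3p, miR-721, miR-6341 and miR-6389. miR-130a-3p shows this shift, with the shared letters in capitals:
miR-130a-3p: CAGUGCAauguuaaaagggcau
Of these 7, 3 were tested, and their differences between IL-6 and control ran from -0.17 (miR-301a-3p) to -0.01 (miR-130a-3p) on the log2 scale.

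The 3 hairpins lie on different chromosomes (GRCm38.p6). mir-148b lies within the bounds of Copz1 on chromosome 15, and mir-152 within those of Copz2 on chromosome 11, so that these hairpins sit in paralogous genes for a subunit of the COPI vesicle coat. The mature miR-148b-3p spans chr15:103285185-103285206 on the plus strand, and miR-152-3p spans chr11:96850439-96850459 on the plus strand. mir-148a lies on chromosome 6 within the bounds of a predicted gene, Gm38821, with miR-148a-3p at chr6:51269829-51269850 on the minus strand. The table used gives no exons, so intron and exon were not told apart.

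Each guide was read by 2 probes of unlike length, complementary to its 3′ part and set in 20 spots each per array. They are printed 5′ to 3′, with capitals for the bases that face positions 10 and 9 of the miRNA. The guides also differ at position 20, which the probes cover and which is not capitalised, and position 9 is the same in miR-148b-3p and miR-152-3p:
miR-148a-3p, 19 bases: acaaagttctgtAGtgcac
miR-148a-3p, 20 bases: acaaagttctgtAGtgcact
miR-148b-3p, 18 bases: acaaagttctgtGAtgca
miR-148b-3p, 19 bases: acaaagttctgtGAtgcac
miR-152-3p, 16 bases: ccaagttctgtCAtgc
miR-152-3p, 17 bases: ccaagttctgtCAtgca
Every probe of one miR-148 guide faced the other miR-148 guide with 2 mismatches. Probes of miR-152-3p faced miR-148b-3p with 2 mismatches and miR-148a-3p with 3. In the other direction, probes of miR-148b-3p faced miR-152-3p with 2 mismatches and those of miR-148a-3p with 3, at the same positions from the 5′ end. Each of these probes also ran 1 base past the end of miR-152-3p. How much of a probe's signal came from a related guide was not tested.

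Across the series, between 268 and 313 miRNAs were detected per array. The 75th percentile used for scaling lay between 248 and 440 intensity units, lowest on control array 3 and highest on IL-6 array 1. All 5 adipocyte marker miRNAs and all 5 fibroblast or mesenchymal markers on the list were detected on all arrays. Of 22 markers of muscle, blood, liver, neural, epithelial and endothelial cells, 1 was detected, miR-205-5p, on all 6 arrays. Every control array lay in slide row 1 and every IL-6 array in slide row 2, so slide row and group cannot be told apart. Slide columns 3 and 4 each held 1 control and 1 IL-6 array.

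miR-148a-3p, the member best known from fat cell formation, measured 302, 337, 326 and 279 scaled intensity units on control arrays 1 to 4, in that order. It measured 329 on IL-6 array 1 and 282 on IL-6 array 2. Both IL-6 values fell inside the control range. On the log2 scale the level was 8.28 ± 0.12 (SD, n = 4) in controls and 8.25 ± 0.16 (SD, n = 2) with IL-6. The difference was -0.03 ± 0.11 (SE, limma adjusted p = 0.916), with a 95% interval of -0.28 to 0.23, or 0.821-fold to 1.17-fold.

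miR-148b-3p measured 63.0, 59.9, 63.1 and 55.7 scaled units on the controls and 59.7 and 54.7 with IL-6. IL-6 array 2 was the lowest of the 6 arrays, and IL-6 array 1 lay above control array 4. The log2 level was 5.91 ± 0.09 (SD, n = 4) in controls and 5.84 ± 0.09 (SD, n = 2) with IL-6. The difference was -0.08 ± 0.09 (SE, limma adjusted p = 0.639), with a 95% interval of -0.29 to 0.13, or 0.819-fold to 1.095-fold.

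miR-152-3p measured 392, 409, 404 and 355 scaled units on the controls and 406 and 374 with IL-6. The IL-6 arrays again lay inside the control range, and control array 4 was the lowest of all. The log2 level was 8.61 ± 0.09 (SD, n = 4) in controls and 8.61 ± 0.08 (SD, n = 2) with IL-6. The difference was -6.67e-05 ± 0.08 (SE, limma adjusted p = 1), with a 95% interval of -0.20 to 0.20, or 0.872-fold to 1.15-fold.

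**Figure D1:**
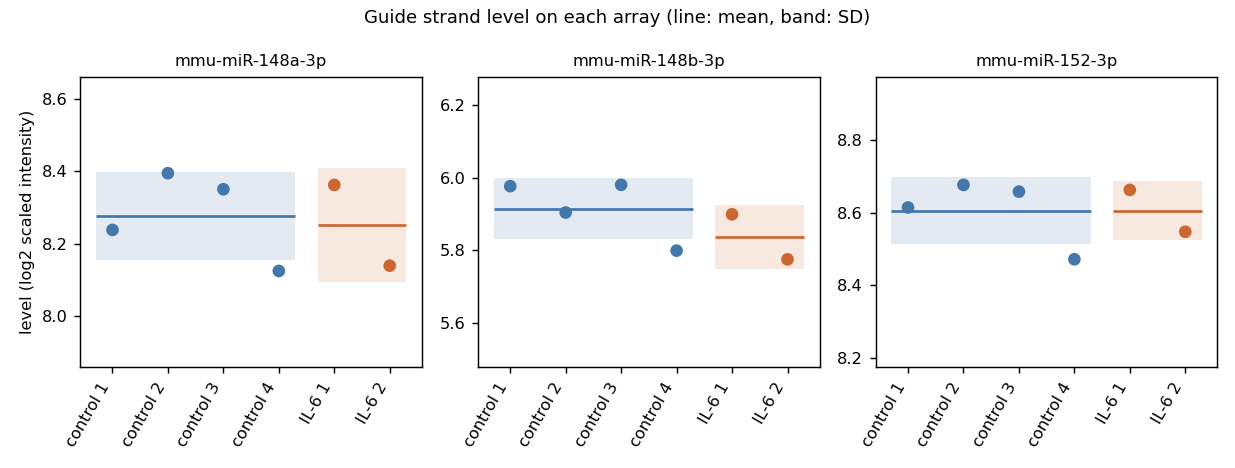
Level of each guide strand (y axis, log2 of scaled intensity) on the 6 arrays (x axis), with control arrays in blue and IL-6 arrays in orange. Lines are group means and bands are 1 SD. Control array 4 and IL-6 array 2 are the lowest points of all 3 panels, and the groups overlap in each.

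In all, 0 of the 3 tested guides passed in either direction (limma), beside 0.334% of the 299 miRNAs tested (1 higher and 0 lower). That background count moved with the setting, to 23 higher and 8 lower without control array 4, 34 higher with no scaling and 31 higher with spike-in scaling, and no guide passed in these fits. Before adjustment, limma had p under 0.05 for 32 higher and 36 lower miRNAs, none of them a guide of this family. Both IL-6 arrays lay below all controls for 21.7% of tested miRNAs and above all controls for 13%, and this held for 0 of the 3 guides in either direction. The difference was below 0 for all 3 guides, beside 54.5% of tested miRNAs, and the median over all tested miRNAs was -0.02. For miR-152-3p that difference was only -6.67e-05, and over 26 settings it was below 0 in 13 and above 0 in 13. The count of 3 therefore does not show a shared direction. With no scaling, all 3 guides changed sign, to 0.27 for miR-148a-3p, 0.22 for miR-148b-3p and 0.29 for miR-152-3p, while the median of all tested miRNAs moved to 0.27. With spike-in scaling they were 0.28, 0.23 and 0.31, beside a median of 0.28, and none passed.

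All 3 guides were lower in slide column 4 than in column 3, in both groups. From column 3 to column 4, miR-148a-3p fell by 0.23 (log2) among the controls and by 0.22 among the IL-6 arrays. miR-148b-3p fell by 0.18 and 0.12, and miR-152-3p by 0.19 and 0.12. Over all tested miRNAs the median of this step was -0.05 in controls and 0.04 with IL-6, and 32.8% of the 299 were lower in column 4 in both groups. Each step compares 1 array with 1 array and has no test.

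Within a column, IL-6 minus control was close to 0 for the guides. It was 0.01 for miR-148a-3p in both columns, -0.08 and -0.02 for miR-148b-3p in columns 3 and 4, and 0.0048 and 0.08 for miR-152-3p. With slide column as a block, the difference was 0.01 ± 0.06 (SE, limma adjusted p = 0.920) for miR-148a-3p, -0.05 for miR-148b-3p (limma adjusted p = 0.706) and 0.04 for miR-152-3p (limma adjusted p = 0.694). The other columns held no IL-6 array, so the difference in this fit rests on the arrays of columns 3 and 4. Fitted on those arrays alone and without the column block, miR-148a-3p differed by the same 0.01 with a wider error, ± 0.14 (SE). That fit leaves the step between the columns in its error. No guide passed with or without the block.

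The probes of a guide were also fitted one by one, over 571 probes. For miR-148a-3p the 19-base probe differed by -0.04 and the 20-base probe by -0.02. For miR-152-3p the 16-base probe differed by 0.0095 and the 17-base probe by -0.0078. These probes had overlapping groups.

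The probes of miR-148b-3p were less alike. Its 18-base probe measured 31.0, 28.7, 31.5 and 29.4 scaled units in the controls, in order, and 27.8 and 25.2 with IL-6, so that both IL-6 values lay below every control. The difference was -0.18 ± 0.06 (SE), with a 95% interval of -0.34 to -0.03, and it did not pass over all probes (limma adjusted p = 0.184). Both IL-6 arrays lay below all controls for 20.7% of the 571 probes and above all controls for 11.9%, and 1.05% passed the threshold. Its 19-base probe gave log2 levels of 6.57, 6.51, 6.57 and 6.36 in the controls and 6.52 and 6.40 with IL-6, which overlapped, a difference of -0.04 ± 0.09 (SE). The spots of the 18-base probe varied on an array by 8.44% to 12.5% (coefficient of variation), where the range over all guide probes was 3.22% to 12.5%.

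**Figure D2:**
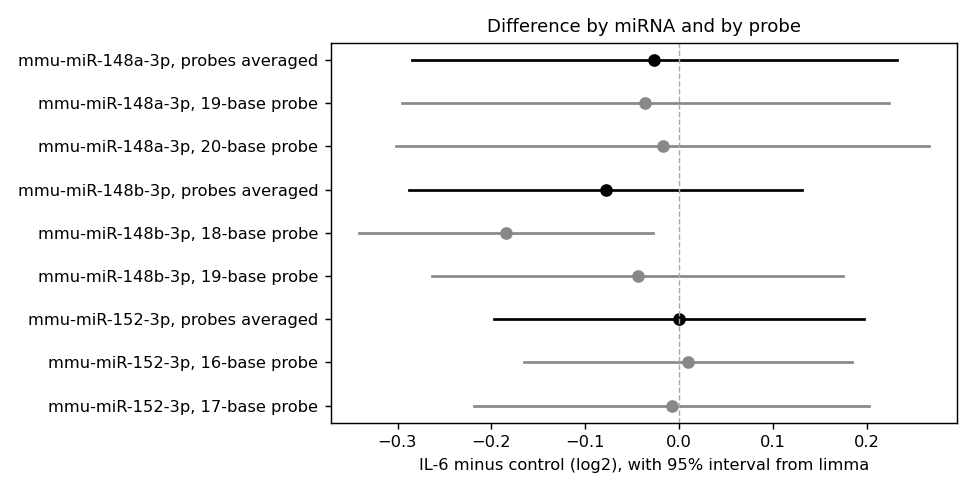
Difference between IL-6 and control (x axis, log2) for each guide strand with its probes averaged (black) and for each probe alone (grey), with bars for limma's 95% interval. The bar of the 18-base probe of miR-148b-3p, from -0.34 to -0.03, is the single one that does not cross 0.

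Because the guides were read on the same arrays, their ratio on an array is free of the scaling. The change of miR-148a-3p relative to miR-152-3p was -0.03 (log2, exact two-sided permutation p = 0.6). Relative to miR-148b-3p, miR-148a-3p changed by 0.05 (exact permutation p = 0.533). miR-148b-3p changed by -0.08 relative to miR-152-3p (exact permutation p = 0.333). After Benjamini-Hochberg adjustment over these 3 pairs each p was 0.6, and 15 splits of the arrays cannot give less than 0.0667. Set to the mean of the controls, the log2 ratio of miR-148b-3p to miR-152-3p was 0.05, -0.08, 0.01 and 0.02 on the control arrays and -0.07 and -0.08 on the IL-6 arrays, so that control array 2 lay with the IL-6 arrays.

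The passenger strands gave signals at background. Of 720 passenger spots on 6 arrays, 1 was well above background, a spot of miR-152-5p on control array 3 that the scanner software marked as an outlier. Averaged per probe and array, the 8 passenger probes ran from -1.63 to 3.67 intensity units before scaling, while every spot of the guide probes was well above background. miR-148a-5p was read by 4 short probes of 13 to 16 bases, and miR-148b-5p and miR-152-5p by 2 probes each. Values this close to 0 have no order, so no difference between groups is given for them. They are not well above background at this sensitivity, which does not show that the strands were absent.

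The pattern over arrays was compared with that of the other 263 miRNAs detected on all arrays, by the root mean square difference of log2 values after each miRNA was centred on its own mean. miR-34a-5p lay nearest to miR-152-3p, at 0.0089, followed by miR-425-5p (0.017), miR-218-5p (0.035), miR-214-5p (0.038) and miR-221-3p (0.041). Nearest to miR-148b-3p was miR-29a-3p (0.018), followed by miR-92a-3p (0.030), miR-20a-5p (0.032), miR-20b-5p (0.047) and miR-199a-5p (0.048). For miR-148a-3p the nearest were miR-1839-5p (0.041), miR-152-3p itself (0.044), miR-598-3p (0.046), miR-146b-5p (0.048) and miR-218-5p (0.050). Among the 263 candidates of miR-148a-3p, miR-152-3p ranked 2 and miR-148b-3p ranked 22. For miR-152-3p, miR-148a-3p ranked 8 and miR-148b-3p ranked 16. For miR-148b-3p, miR-152-3p ranked 13 and miR-148a-3p ranked 51. Over all candidates the median distance was 0.167 from miR-148a-3p, 0.132 from miR-148b-3p and 0.141 from miR-152-3p. All values of an array share its scaling and its slide position, and 6 arrays are few for such a comparison.

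Related miRNAs were described by list. For 12 tested of 13 miRNAs known to act on DNA methyltransferases, among them the 3 guides, 0 rose and 0 fell by the limma test, beside 0.334% called over all tested miRNAs. The difference was below 0 for 10 of the 12, beside 54.5%, and the median was -0.04 against -0.02. These 10 include miR-152-3p, at -6.67e-05. Both IL-6 arrays lay below all controls for 2 of the 12, beside 21.7%. The brightest of them, miR-199a-3p, differed by -0.05, and miR-29a-3p and miR-29b-3p, which act on Dnmt3a and Dnmt3b, by -0.06 and -0.05. miR-143-3p stood lowest, at -0.39 ± 0.08 (SE, limma adjusted p = 0.0845), with both IL-6 arrays below all controls.

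The pro-adipogenic list held 22 tested of 23 miRNAs, with miR-148a-3p among them. By the limma test 0 passed, beside 0.334% of all tested miRNAs. The difference was below 0 for 16 of the 22, beside 54.5%, and above 0 for 6, and the median was -0.09. Both IL-6 arrays lay below all controls for 5 of the 22, beside 21.7% of all tested miRNAs. miR-143-3p, at -0.39, is on this list too, stood lowest in it and is counted among these 5. miR-21a-5p, which STAT3 is known to induce, differed by -0.15, with both IL-6 arrays below all controls. miR-103-3p differed by -0.11, miR-107-3p by -0.14 and miR-26a-5p by 0.04, each with overlapping groups. miR-148a-3p, at -0.03, lay nearer to 0 than the list's median, a comparison with no test. With no scaling the medians of the DNA methyltransferase and pro-adipogenic lists were 0.25 and 0.21, beside 0.27 over all tested miRNAs.

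**Figure D3:**
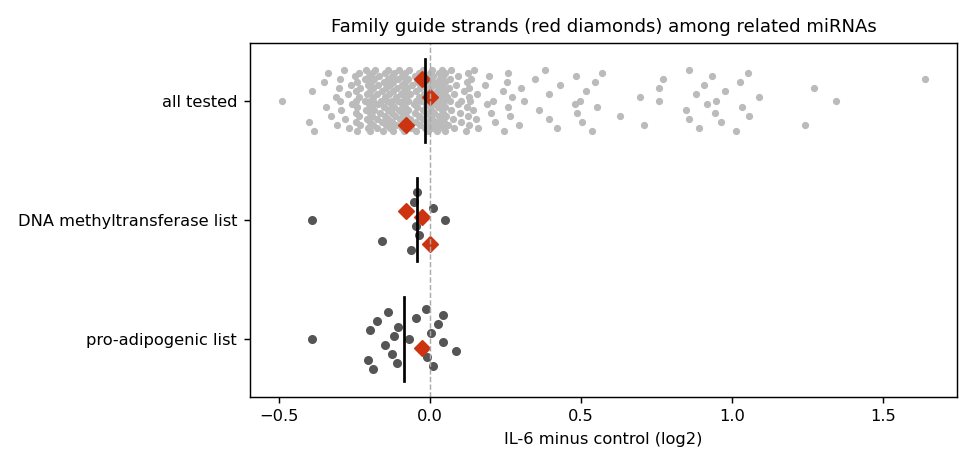
Differences between IL-6 and control (x axis, log2) for all 299 tested miRNAs and for the members of the DNA methyltransferase and pro-adipogenic lists (rows, 1 point per miRNA, spread vertically to show them apart), with vertical bars for medians. The guide strands of the family (red diamonds) lie between -0.08 and 0, near the median of all tested miRNAs at -0.02.

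**Figure D4:**
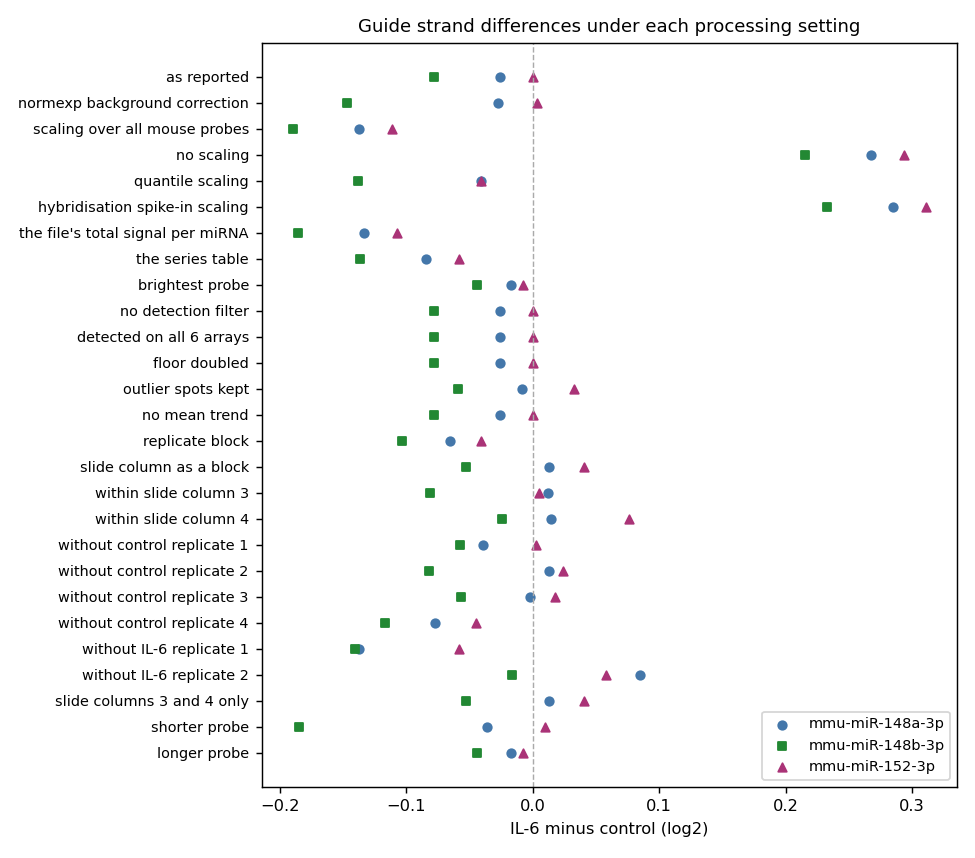
Difference between IL-6 and control (x axis, log2) for the 3 guide strands under each processing setting (rows). The values run from -0.19 to 0.31 in all, with the highest from no scaling and spike-in scaling. Under several settings miR-148b-3p lies further below the other guides than as reported (-0.08). Among them are normexp background correction (-0.15), quantile scaling (-0.14) and the shorter probe (-0.18). Under others, such as the brightest probe (-0.04), it lies nearer to them.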

How the data were processed

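Per the submitters' processing notes and the file headers, the authors read the arrays with Agilent Feature Extraction 10.10.1.1. The deposited intensity values had a spatially fitted background subtracted and can be negative. Spot flags were used as deposited. The deposited series table held the scanner's total intensity per probe (largest difference 0). The sources used here do not give any later normalization by the authors.

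Control spots and spots marked uneven or outlying were left out, and the rest were averaged per probe. A probe counted as detected on an array when a share of 0.5 or more of the spots had the scanner's well-above-background mark. Arrays were scaled by the 75th percentile of the 502 probes detected on all arrays. Probes were averaged per miRNA, a floor of 6.25 was set and log2 taken. No guide value was at the floor, and no spot was saturated. miRNAs detected on all controls or both IL-6 arrays were tested with limma 3.58.1 in R 4.3.3 (mean trend, two-sided, Benjamini-Hochberg, threshold 0.05). Fits were also run on simulated data with independent noise for each miRNA and no effect shared by an array or slide position. The outcome is not given here and no result above rests on it. Replicate numbers came from the sample titles, and slide rows and columns from the file names.

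Members and lists were chosen with earlier results of these data known. Named are all members, the 4 brightest tested miRNAs of each list, any other seed sharer, and the 5 nearest patterns. One planned list is not reported here. The 7 miRNAs with the shifted seed letters, the fit over probes and the comparison of slide columns were chosen after values were seen.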

Additional observations from a re-analysis of the deposited data

How the results depend on the processing

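No guide strand passed under any alternative that has a test (limma adjusted p from 0.184 to 1), and miR-148b-3p was below 0 in all but no scaling (0.22) and spike-in scaling (0.23). For miR-148a-3p the sign turned with no scaling (0.27), spike-in scaling (0.28), slide column as a block (0.013), within column 3 (0.012), within column 4 (0.015) and in slide columns 3 and 4 only (0.013). For miR-152-3p, whose reported value is nearly 0, it turned with normexp (0.0032), no scaling (0.29), spike-in scaling (0.31), outlier spots kept (0.033), column as a block (0.040), within column 3 (0.0048) and column 4 (0.076), in columns 3 and 4 only (0.040) and with the shorter probe (0.0095). The difference with the column block and that in columns 3 and 4 only are both the mean of the within-column values, from the same arrays. These settings are therefore not independent of each other. Leaving out each array in turn gave -0.14 to 0.085 for miR-148a-3p, -0.14 to -0.02 for miR-148b-3p and -0.058 to 0.058 for miR-152-3p. With replicate number as a block the differences were -0.07, -0.10 and -0.04. Same-numbered arrays deviated with r = 0.06 and r = -0.34 over 299 miRNAs. Such arrays lay in different slide columns, so these values cannot decide whether the numbers pair the samples. The labels do not say that the numbers do, and the reported fit takes no pairing.

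Over all miRNAs, limma called 1 higher and 0 lower as reported. The higher count was 0 with normexp (6 unadjusted), the series table (33), detection on all 6 arrays (21), the replicate block (36), the column block (34) and columns 3 and 4 only (22). It was 2 with scaling over all mouse probes, the brightest probe and no detection filter, 6 in the fits over probes (shorter or longer), 34 with no scaling and 31 with spike-in scaling. With total signal as summed by the scanner software it was 13, and 29 were lower. Leaving out each array gave 1 to 23 higher and 0 to 8 lower, the upper ends without control array 4; 5 were higher when IL-6 array 1 was left out and 3 when IL-6 array 2 was. All-mouse-probe scaling and the file's total signal moved the median of all tested miRNAs to -0.13. The cause of these changes was not tested. The list medians ran from -0.20 to 0.27.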

Other observations

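The probe positions listed in the array files were compared with RefSeq's mature strands (GRCm38.p6) for probes of miRNAs with 1 mature entry whose hairpin holds the listed position. Of 751 such probes for plus-strand miRNAs, 745 lay inside the mature strand (99.2%). Of 455 for minus-strand miRNAs, 0 did, and all 455 lay inside it once the position was mirrored within the hairpin. miR-148a shows this. Its 20-base guide probe is listed at 51269874 to 51269893 on chromosome 6, while RefSeq puts miR-148a-3p at 51269829 to 51269850. The probe letters match the named miRNA exactly; the listed positions were used for no value given here.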
